A study of Mus musculus with 8 samples.

Results

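Pax2, Pax8 and Pax3 are 3 of the 9 Pax genes of the mouse, a family of transcription factors named after the paired domain with which they bind DNA. Their rows were found among the 49315 genes of the deposited count table by Ensembl gene ID through GENCODE M21 symbols, and all 3 were present. The libraries are messenger RNA from frozen mouse kidney, 4 labelled control and 4 labelled conditional knockout of Kdm1a. Kdm1a encodes LSD1, a histone demethylase of repressor complexes. The extraction protocol calls the controls wild type. No label gives the recombinase or the cells in which the allele was deleted, nor the strain, age or sex of the animals, and none says that a library is 1 animal or a pool, so p-values measure the spread between these libraries.

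Pax2 and Pax8 belong to the same branch of the family, are close in sequence and overlap in function. Both are switched on in the intermediate mesoderm, and kidney formation depends on them. They are then found in the ureteric bud, the condensing mesenchyme and the young tubules, and Pax8 stays on in tubular epithelium. Pax3 belongs to another branch, with a complete homeodomain beside its paired domain. It is known from the dorsal neural tube, the neural crest and the precursors of skeletal muscle. Pax proteins act through cofactors. Paxip1 (PTIP) links Pax2 to the histone H3 lysine 4 methyltransferases Kmt2c and Kmt2d, and the Groucho proteins Tle1 to Tle4 link it to repression.

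Pax2 (ENSMUSG00000004231) lies on chromosome 19, 44756045 to 44837871, plus strand. Pax8 (ENSMUSG00000026976) lies on chromosome 2, 24420560 to 24475599, minus strand. Pax3 (ENSMUSG00000004872) lies on chromosome 1, 78101267 to 78197134, minus strand. All coordinates are GRCm38, as the deposited tables give them. A stretch of coding sequence in which the 3 genes are much alike is shown because counts of related genes are only as good as the reads' ability to tell them apart. It holds 90 bases of the paired domain and has the most bases shared with Pax2 (142 over Pax8 and Pax3) among the 82 codon-aligned windows that lie within 1 exon of each gene. The highest over all 387 windows was 145. The sequences are read 5′ to 3′ on the coding strand from GENCODE M21 transcripts. Capitals mark the bases that differ from Pax2.
Pax2, exon 2, chr19:44760952-44761041, plus strand: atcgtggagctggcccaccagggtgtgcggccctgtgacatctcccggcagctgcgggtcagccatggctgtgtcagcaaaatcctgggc
Pax8, exon 3, chr2:24444568-24444657, minus strand: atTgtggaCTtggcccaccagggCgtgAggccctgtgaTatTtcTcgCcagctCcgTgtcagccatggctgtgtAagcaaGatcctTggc
Pax3, exon 2, chr1:78195308-78195397, minus strand: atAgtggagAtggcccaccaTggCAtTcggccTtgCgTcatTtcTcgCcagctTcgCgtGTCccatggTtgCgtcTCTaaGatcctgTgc
Pax8 differed from Pax2 at 14 of the 90 bases and Pax3 at 24, so 84.4% and 73.3% of the bases were the same. Over all their annotated transcripts, the 3 genes shared 0 words of 50 bases with each other. For Pax2, 0 of 5496 such words occurred in a transcript of any other gene. For Pax8, 276 of 6237 (4.43%) did, all in Gm13415, a non-coding gene on the opposite strand. For Pax3 there were 17 of 6185 (0.275%).

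The libraries held from 19524945 to 28544511 counts. Levels are given in CPM, the usual scaling of counts to libraries of equal size, with library sizes corrected by the trimmed mean of M values. Differences are log2 fold changes of knockout over control from edgeR's quasi-likelihood test, and an adjusted p under 0.05 over all 18485 genes tested is termed a call. Of these genes, 14.9% were called, 6.61% higher and 8.27% lower, and 35.1% had an unadjusted p under 0.05. Kdm1a itself ran from 110 to 120 CPM in the controls and from 90.9 to 95.3 CPM in the knockouts, without overlap, and fell by 0.27 (log2 scale, SE 0.05, adjusted p 0.0194). Leaving out 1 library at a time kept this call in 3 of 8 fits. The labels do not say which part of the gene is deleted, so counts over the whole gene do not measure that part alone. Six2, a marker of nephron progenitors, was at 96.9 to 219 CPM and Epcam, a marker of tubular epithelium, at 320 to 365 CPM in the 8 libraries, so kidney markers were present in each. Libraries stood apart in other ways. Xist reached 965 to 1086 CPM in control replicate 2 and knockout replicates 1 and 4, with a maximum of 6.14 CPM elsewhere. The sum of adrenal markers was highest in knockout replicate 1 (2770 CPM), followed by knockout replicate 4 (383 CPM) and control replicate 4 (154 CPM), and did not pass 24.7 CPM elsewhere. Control replicate 2 had the lowest summed proximal tubule markers of the controls (400 CPM, against 800 to 1790). Knockout replicate 3 had the highest of the knockouts (221 CPM, against 41.4 to 122). By chi-square per degree of freedom of the counts over genes, a distance that grows with depth, control replicate 2 was nearer to the 4 knockouts (16.3 to 20.7) than to the other controls (31.8 to 56.0). Knockout replicate 3 was nearer to control replicate 2 (16.8) than to any knockout (20.3 to 28.9). Kdm1a was at 112 CPM in control replicate 2, within the controls, and at 90.9 CPM in knockout replicate 3, the lowest of all. Whether the composition of the tissue or the labels of these libraries differ was not tested. Bulk RNA cannot tell fewer cells of a type from less RNA per cell.

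Pax2 and Pax8 were abundant in every kidney, and neither was called as different between genotypes. Pax2 was at 127, 104, 104 and 101 CPM in control replicates 1 to 4 and at 122, 115, 122 and 111 CPM in knockout replicates 1 to 4. Control replicate 1 was the highest of the 8 libraries, the other 3 controls were the lowest, and the groups overlapped. The mean was 109 ± 12.1 CPM in controls and 117 ± 5.70 CPM in knockouts (SD, n = 4 each). For Pax2 the log2 fold change was 0.11 (SE 0.08, 95% interval −0.08 to 0.30, adjusted p 0.372). In percent of the control level the interval ran from −5.35% to 22.7%, so a larger fall or rise lies outside it. Leaving out any 1 library gave no call. The fit without control replicate 1 came nearest, at 0.20 (SE 0.06, adjusted p 0.0963).

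Pax8 was at 117, 126, 133 and 126 CPM in control replicates 1 to 4. In knockout replicates 1 to 4 it was at 135, 128, 138 and 115 CPM. The lowest and the highest of the 8 libraries were both knockouts, so the controls lay within the knockouts' range. The mean was 126 ± 6.84 CPM in controls and 129 ± 10.3 CPM in knockouts (SD, n = 4 each). For Pax8 the fitted difference was 0.03 (log2 scale, SE 0.07, 95% interval −0.13 to 0.20, adjusted p 0.762), or −8.67% to 14.8% of the control level. Over all 8 libraries the standard deviation was 6.47% of the mean for Pax8 and 8.72% for Pax2. Among the 4556 tested genes with a mean of 50 to 250 CPM, 21.8% varied less than Pax8 and 40.5% less than Pax2, and 18.5% were called.

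**Figure D1:**
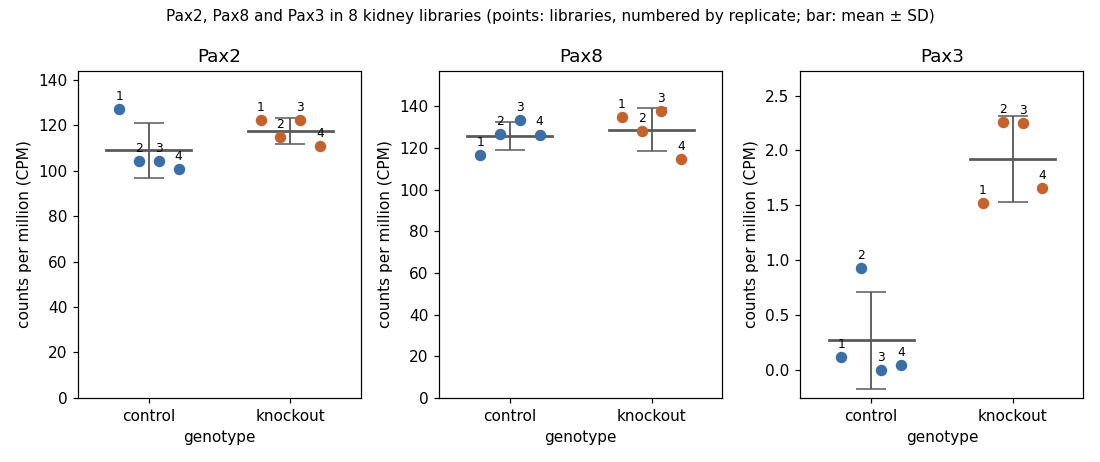
CPM (y axis) of Pax2, Pax8 and Pax3 in 4 control and 4 knockout kidney libraries. Each point is a library numbered by replicate, and the bar is the mean with its SD. Pax2 and Pax8 overlap between genotypes at 101 to 138 CPM, while the 4 knockout libraries have 1.52 to 2.26 CPM of Pax3 and the controls 0 to 0.927 CPM.

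Per length of all annotated exons of the gene, the levels of the 2 genes lay within the spread of libraries of each other. The transcripts in use may be shorter than this length and were not examined. In controls Pax8 stood at 20.7 ± 1.13 and Pax2 at 20.2 ± 2.24 CPM per kb (SD, n = 4 each). In knockouts the values were 21.2 ± 1.69 for Pax8 and 21.7 ± 1.05 for Pax2. The ratio of Pax2 to Pax8 within a library, which does not depend on how libraries are scaled, was 1.22, 0.923, 0.874 and 0.893 in control replicates 1 to 4. It was 1.02, 1.004, 0.995 and 1.08 in knockout replicates 1 to 4. Control replicate 1 had the highest ratio and the other 3 controls the lowest, with the knockouts between them. The mean log2 ratio was −0.05 ± 0.22 in controls and 0.03 ± 0.06 in knockouts (SD, n = 4 each). The difference of 0.08 (SE 0.12) gave p = 0.543 in an exact two-sided permutation test over 70 assignments, 0.814 after adjustment over the 3 ratios examined.

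The other ratios set each gene against Epcam, 1 of 8 general markers of tubular epithelium examined. Epcam was the only 1 of these 8 with a positive log2 fold change (0.03), and the list's median was −0.46. A ratio to Epcam is therefore not a level per amount of tubular epithelium. Epcam was at 342 ± 18.5 CPM in controls and 349 ± 12.6 CPM in knockouts (SD, n = 4 each). The log2 ratio of Pax8 to Epcam, per length, was −3.02, −3.04, −3.01 and −2.98 in control replicates 1 to 4, a narrow range. It was −2.90, −2.98, −2.98 and −3.19 in knockout replicates 1 to 4, with replicate 4 the lowest of the 8. The difference between genotypes was 0.0018 (SE 0.06, exact permutation p = 1, adjusted p 1). For Pax2 to Epcam it was 0.08 (SE 0.12, exact permutation p = 0.514, adjusted p 0.814). The smallest p that 4 against 4 libraries allow is 0.0286.

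**Figure D2:**
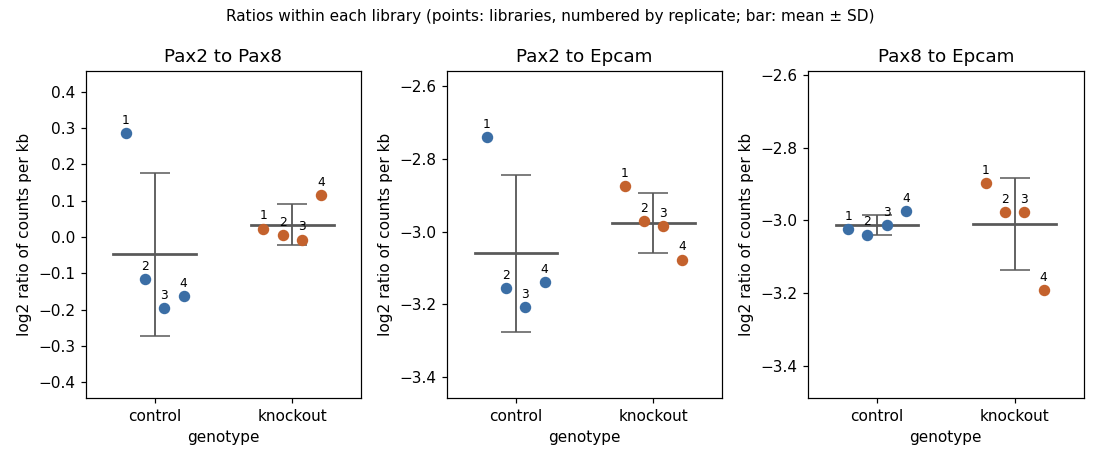
Log2 ratio of counts per kb (y axis) of Pax2 to Pax8, Pax2 to Epcam and Pax8 to Epcam within each library. Points are libraries numbered by replicate and bars are means with SD. Control replicate 1 has the highest Pax2 to Pax8 ratio, 0.29, and knockout replicate 4 the lowest Pax8 to Epcam ratio, −3.19.

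These levels stood beside large differences in the tubule genes of the same libraries. Summed markers of the proximal tubule ran from 400 to 1790 CPM in controls and from 41.4 to 221 CPM in knockouts. Of the 12 genes on that list, 11 were called lower, 0 higher, and the median log2 fold change was −3.02, beside 0.0044 over all genes tested. Of 9 tested markers of the thick ascending limb and distal tubule, 5 were called lower and 0 higher (median −2.44). Over all genes tested, 8.27% were called lower and 6.61% higher, or 14.9% in either direction. Of the 8 general markers of tubular epithelium, Epcam among them, 0 were called by edgeR, 3 had an unadjusted p under 0.05 (35.1% of all genes did), and the median was −0.46.

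Pax3 was scarce but higher in every knockout library. It had 3, 20, 0 and 1 counts in control replicates 1 to 4, which is 0.123, 0.927, 0 and 0.0455 CPM. It had 36, 45, 65 and 46 counts in knockout replicates 1 to 4, or 1.52, 2.26, 2.25 and 1.65 CPM. The lowest knockout was 1.64 times the highest control, and the groups did not overlap. All 4 knockouts lay above all 4 controls for 9.29% of the genes tested. Control replicate 2 held 20 of the 24 control counts (83.3%), and 0 counts in control replicate 3 allow up to 0.121 CPM (3 counts, counting error only).

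The log2 fold change of Pax3 was 2.83 (SE 0.81), or 7.12-fold with a 95% interval of 1.999 to 25.3, at an adjusted p of 0.0472. The exact permutation test of log2 CPM, added after the data were seen, gave p = 0.0286, the smallest this design allows. Since the groups did not overlap, the test had to give this value, and it adds nothing to that observation. The size turned on control replicate 2, and the call on single libraries. Without control replicate 2 the log2 fold change was 4.97 (adjusted p 8.86e-04). With control replicate 2 kept, the call was lost in each of the 7 fits that left out another library, where the values were between 2.40 and 2.93 and the highest adjusted p was 0.130, without control replicate 1. With limma-voom and sample weights Pax3 changed by 5.10 (adjusted p 7.80e-04). Leaving out control replicate 2 together with knockout replicate 3 gave 4.88 (adjusted p 6.48e-04).

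**Figure D3:**
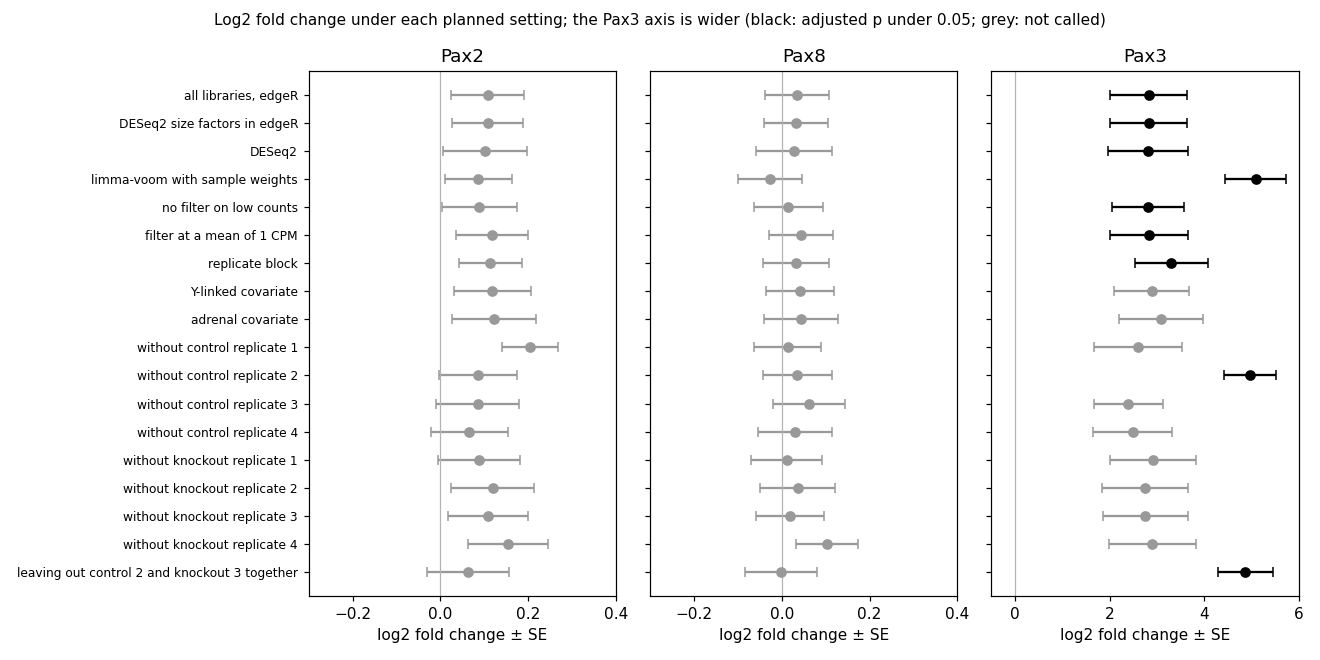
Log2 fold change with SE (x axis) of Pax2, Pax8 and Pax3 under each planned setting (y axis), with a wider x axis for Pax3. Black marks an adjusted p under 0.05. Pax2 and Pax8 are grey throughout, and Pax3 lies between 2.40 and 5.10 and is black in 9 of its 18 settings.

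Pax3 was set beside markers of the cells in which it is best known, and beside the features in which libraries stood apart. Myod1 and Myf5, which commit cells to the muscle lineage, were at no more than 0.0927 CPM in any library, and Pax7, of muscle stem cells, had 0 counts in all 8. Summed skeletal muscle markers reached 27.7 CPM in controls and 32.1 CPM in knockouts, with 0 of 4 tested genes called by edgeR and 0 at an unadjusted p under 0.05. The ranges of this sum overlap. Summed melanocyte markers ran from 2.18 to 3.11 CPM in controls and from 2.48 to 4.56 CPM in knockouts, and the 1 gene tested, the pigment granule gene Pmel, was not called at 0.17 (adjusted p 0.587). Of 9 tested genes of neural crest and Schwann cells, which summed to 136 to 173 CPM in controls and 150 to 179 CPM in knockouts, 1 was called, beside 14.9% of all genes, and 5 had an unadjusted p under 0.05, beside 35.1%. The fitted values of 7 of the 9 were positive, with a median of 0.34. The called gene was Snai2, a zinc finger repressor of migrating crest and mesenchyme, which rose by 0.31 (log2 scale, SE 0.08, adjusted p 0.0352). Sox10, a defining factor of crest and glia, was at 0.860, 0.742, 0.363 and 0.864 CPM in controls and at 2.49, 0.552, 0.450 and 1.91 CPM in knockouts, in the order of replicates, with no call (log2 fold change 0.94, SE 0.57, adjusted p 0.264). Sox10 was highest in knockout replicates 1 and 4. S100b, a glial calcium-binding protein gene, was at 0.549, 0.703, 1.42 and 1.47 CPM in knockout replicates 1 to 4, highest in replicates 3 and 4, and at 0.323 to 0.835 CPM in controls, with no call (1.06, adjusted p 0.119). Pax3 was highest in knockout replicates 2 and 3, and the part of crest or muscle cells in its level was not tested.

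Summed adrenal markers were at 17.7 and 19.0 CPM in knockout replicates 2 and 3, the libraries with most Pax3. The covariate for adrenal markers left the log2 fold change of Pax3 at 3.09 (adjusted p 0.0699). Y-linked transcripts were high in knockout replicates 2 and 3 and low in knockout replicates 1 and 4, and they were low in control replicate 2, the control with most Pax3. With the level of Y-linked transcripts as a covariate the value was 2.89 (adjusted p 0.0520). Control replicate 2 also stood out in summed ovary markers, at 11.6 CPM against 1.64 to 3.21 CPM in the other 7 libraries, and in summed testis markers, at 19.7 CPM against 1.95 to 3.71 CPM. Both lists hold Amh, and the name of a list does not identify a tissue. Y-linked transcripts were low in this library, as given above. The part of these markers in the Pax3 level of control replicate 2 was not tested.

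The other members of the family were low or absent. Pax6, a factor of eye, brain and endocrine pancreas, ran from 2.46 to 4.78 CPM in controls and from 3.25 to 4.10 CPM in knockouts, a difference of 0.18 on the log2 scale (with SE 0.23, adjusted p 0.602). Per length, Pax6 stood at 0.279 ± 0.0885 CPM per kb in controls and 0.315 ± 0.0371 in knockouts, and Pax3 at 0.0443 ± 0.0709 in controls and 0.310 ± 0.0628 in knockouts (SD, n = 4 each). In knockouts Pax3 thus reached the level of Pax6 within the spread of libraries, and in controls it was below it. Both were far below Pax2 and Pax8. Pax9 had 24 counts in all controls and 30 in all knockouts, Pax5 had 7 and 28, and Pax1 had 1 and 3. These 3 genes did not pass the filter on low counts and were not tested. Pax4 and Pax7 had 0 counts in every library, where 3 counts correspond to 0.104 to 0.151 CPM. Among the 4 family members tested, 1 was called, Pax3, beside 14.9% of all genes. Pax3 was itself chosen with earlier results of these data known.

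The loci themselves were then examined. Exons of Pax8 overlap those of Gm13415 on the opposite strand by 367 bases. Since the strand setting of the counting is not given in the sources used here, reads from this overlap cannot be assigned. Gm13415 had 10 to 32 counts per library beside at least 2550 for Pax8. These counts do not show how many reads from the overlap went uncounted. Pax2 has 2 antisense genes in its introns, with 0 bases of exon overlap. One of them, Gm20395, was singled out after its values were seen. It had 13, 84, 25 and 20 counts in control replicates 1 to 4 and 108, 92, 88 and 74 in knockout replicates 1 to 4. In CPM these are 0.533, 3.89, 1.01 and 0.909 in controls and 4.56, 4.62, 3.05 and 2.66 in knockouts. Control replicate 2 lay among the knockouts and the other 3 controls below all of them. The fitted change of Gm20395 on the log2 scale was 1.23 (SE 0.55, adjusted p 0.147) with all libraries and 2.17 (adjusted p 0.00187) without control replicate 2. Pax2 itself did not follow this pattern, at 104 CPM in control replicate 2.

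Among the nearest 2 tested protein-coding genes on either side of each member, a choice made after the data were seen, 2 of 12 were called, a share near the 14.9% of all genes. Ndufb8, a subunit of mitochondrial complex I that lies 201 kb from Pax2, was at −0.76 (log2, SE 0.16, adjusted p 0.0227). Slc4a3, an anion exchanger gene 2539 kb from Pax3, was at 0.43 (log2, SE 0.09, adjusted p 0.0225). Next to Pax8, the cytokine antagonist gene Il1rn was at 1.15 (adjusted p 0.0891) and the calcium channel gene Cacna1b at 0.86 (adjusted p 0.0763), without a call. Of the genes next to Pax3, Epha4 and Sgpp2 were not called, at 0.29 (adjusted p 0.0812) and 0.05 (adjusted p 0.772).

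Few cofactors of Pax proteins were called. Of 16 tested cofactors, 1 was called higher and 1 lower, which is no larger a share than the 14.9% over all genes, and the median log2 fold change was 0.20. Dpy30, a core subunit of the H3 lysine 4 methyltransferase complexes, was at 46.9, 46.9, 49.1 and 49.9 CPM in control replicates 1 to 4. In knockout replicates 1 to 4 it was at 41.4, 38.1, 42.7 and 40.7 CPM, below all controls, a difference of −0.24 on the log2 scale (with SE 0.06, adjusted p 0.0319). Tle2, a Groucho corepressor, rose by 0.35 (SE 0.10, adjusted p 0.0418), and the other Groucho genes Tle1, Tle3 and Tle4 had values of 0.36, 0.26 and 0.29 without a call (adjusted p 0.0626, 0.106 and 0.0518). Paxip1, the adaptor itself, was at −0.09 (SE 0.07, adjusted p 0.389). Kmt2d and Kmt2c were at 0.40 and 0.37 (adjusted p 0.0650 and 0.184). The count depended on single libraries, from 0 to 10 of the list called when 1 library was left out, the 10 without control replicate 2. Dpy30 and Tle2 each kept their call in 2 of these 8 fits, without control replicate 2 and without knockout replicate 3.

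Genes that act with Pax2 and Pax8 in the early kidney showed no call. This list holds 12 genes, among them Eya1 and Six2 of the nephron progenitors, the Hox11 genes Hoxa11, Hoxc11 and Hoxd11, and Wt1. By edgeR 0 of the 12 were called, beside 14.9% of all genes, 4 had an unadjusted p under 0.05, beside 35.1%, and the median log2 fold change was 0.16. DESeq2 called 1 and limma-voom 7. Six2 was at 162, 158, 109 and 96.9 CPM in controls and at 187, 219, 135 and 186.5 CPM in knockouts, in the order of replicates, a difference of 0.47 on the log2 scale (with SE 0.20, adjusted p 0.127). Without control replicate 2, 3 genes of the list were called, Hoxd11 and Sall1 among them.

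**Figure D4:**
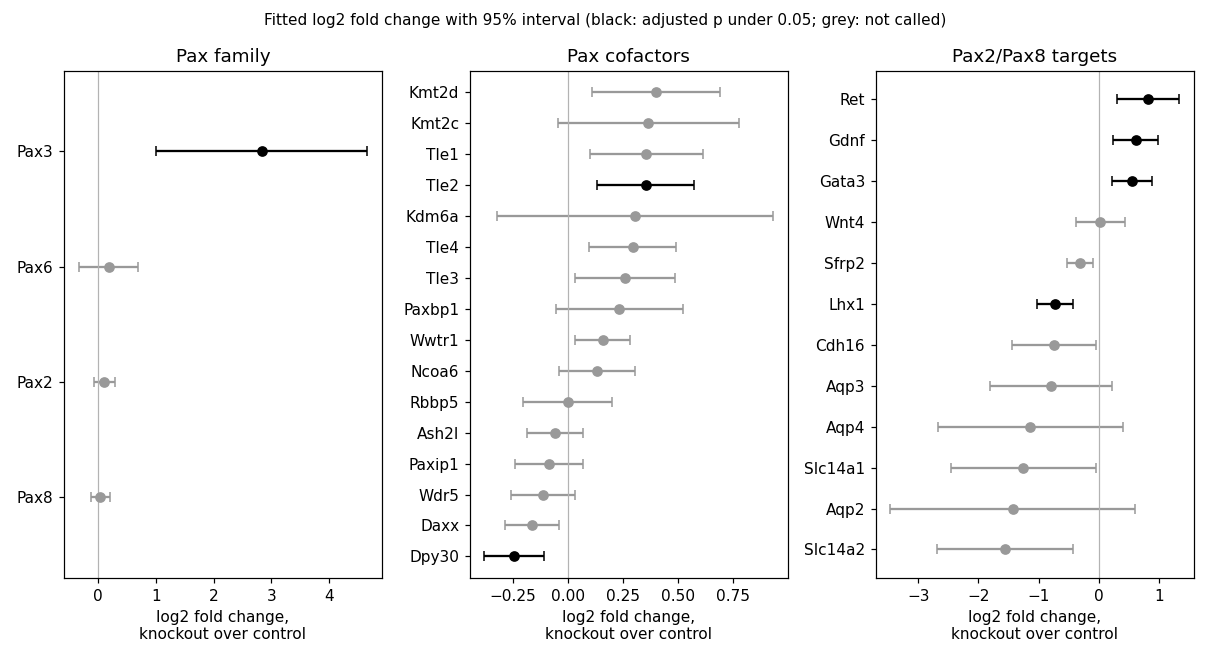
Fitted log2 fold changes of knockout over control (x axis) with 95% intervals for tested genes of the Pax family, Pax cofactors, and genes known to depend on Pax2 or Pax8. Black marks an adjusted p under 0.05, grey the rest, and each panel has its own x axis. Pax2 and Pax8 lie at 0.11 and 0.03, while Ret, Gdnf and Gata3 are higher and Lhx1 lower.

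Genes known to depend on Pax2 or Pax8 were called in both directions. Of 12, 3 were called higher and 1 lower, beside 6.61% and 8.27% of all genes tested, and the median log2 fold change was −0.73. The 3 higher genes are known from the outgrowth of the ureteric bud. Some markers of other cells were called in the same libraries. Of 8 stroma markers, 2 were called higher, Pdgfra at 0.90 (adjusted p 0.00575) and Foxd1 at 0.64 (adjusted p 0.0477), and the list's sum ran from 2718 to 3791 CPM in controls and from 3109 to 5278 CPM in knockouts. Of 10 tested markers of the ureteric bud and collecting duct, Ret, Gata3 and Hsd11b2 were called higher. Only 5 of these 10 values were positive, with a median of 0.12. The list's sum was not higher, at 1332 to 2042 CPM in controls and 1231 to 1822 CPM in knockouts. Of 8 nephron progenitor markers, Meox1 at −1.45 (adjusted p 0.0132) and Cited1 at −1.64 (adjusted p 0.0225) were called lower. The list as a whole did not fall, with 5 of the 8 values positive and a median of 0.23. Its sum ran from 464 to 696 CPM in controls and from 506 to 705 CPM in knockouts. The part of cell composition in the values of these genes was not tested. Ret, the receptor for GDNF on the bud, was at 98.3, 154, 86.2 and 65.1 CPM in control replicates 1 to 4. In knockout replicates 1 to 4 it was at 169, 208, 159 and 178 CPM. All knockouts lay above all controls, though control replicate 2 came close to the lowest knockout. Ret rose by 0.82 (log2 scale, SE 0.23, adjusted p 0.0437).

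Gdnf, the ligand made by the mesenchyme, was at 72.6, 72.8, 52.1 and 48.4 CPM in control replicates 1 to 4. It was at 79.1, 116, 86.6 and 96.7 CPM in knockout replicates 1 to 4, again without overlap, and changed by 0.62 (SE 0.17, adjusted p 0.0390). Gata3, a zinc finger factor of the nephric duct and collecting duct, was at 66.5, 94.7, 65.0 and 61.9 CPM in controls and at 119.5, 100.3, 112 and 91.15 CPM in knockouts, in the order of replicates. Control replicate 2 lay above knockout replicate 4, so the groups of Gata3 overlapped. Its log2 fold change was 0.56 (SE 0.14, adjusted p 0.0364).

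Lhx1, a LIM homeobox factor of the renal vesicle and its derivatives, went the other way. It was at 56.3, 46.3, 64.2 and 62.4 CPM in control replicates 1 to 4 and at 41.6, 36.4, 29.4 and 31.4 CPM in knockout replicates 1 to 4. All knockouts lay below all controls, as for 9.58% of the genes tested. Lhx1 fell by 0.73 (log2 scale, SE 0.13, adjusted p 0.0173). Leaving out 1 library at a time kept the call of Lhx1 in 5 of 8 fits, those of Ret and Gdnf in 2 and that of Gata3 in 1. The list as a whole had from 0 calls, without control replicates 1 or 3 or knockout replicate 4, to 10, without knockout replicate 3.

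Urea transporters and aquaporins serve the concentration of urine and are known to depend on Pax2 and Pax8 in the adult kidney. Those on the list had negative log2 fold changes but no call by edgeR. DESeq2 called Slc14a1 and Slc14a2 lower, and limma-voom these 2 with Aqp2, Aqp3 and Aqp4. Slc14a2, the urea transporter of the inner medulla, was at 15.9, 12.9, 31.1 and 24.5 CPM in control replicates 1 to 4. In knockout replicates 1 to 4 it was at 3.72, 4.17, 16.1 and 4.53 CPM, so that knockout replicate 3 lay within the controls. Its log2 fold change was −1.56 (SE 0.50, adjusted p 0.0650), and −2.33 (adjusted p 0.0111) without knockout replicate 3.

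Aqp2, the vasopressin-regulated water channel, was at 305, 218, 792 and 415 CPM in control replicates 1 to 4 and at 45.2, 22.3, 508 and 64.7 CPM in knockout replicates 1 to 4. Here too knockout replicate 3 lay within the controls. Aqp2 was at −1.43 (log2 scale, SE 0.90, adjusted p 0.278) with all libraries and −3.27 (adjusted p 0.0144) without knockout replicate 3. Cdh16, the kidney cadherin, had its highest knockout value in the same library, with 252, 212, 471 and 242 CPM in knockout replicates 1 to 4, beside 284 to 685 CPM in controls, and −0.74 (SE 0.31, adjusted p 0.124). Cdh16 was at −1.05 (adjusted p 0.0325) without knockout replicate 3 and at −0.94 (adjusted p 0.0260) without control replicate 2. In knockout replicate 3 Pax2 and Pax8 were at 122 and 138 CPM, no lower than in the other knockouts. Wnt4, which drives the mesenchyme into the renal vesicle, was at 0.03 (SE 0.18, adjusted p 0.929).

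**Figure D5:**
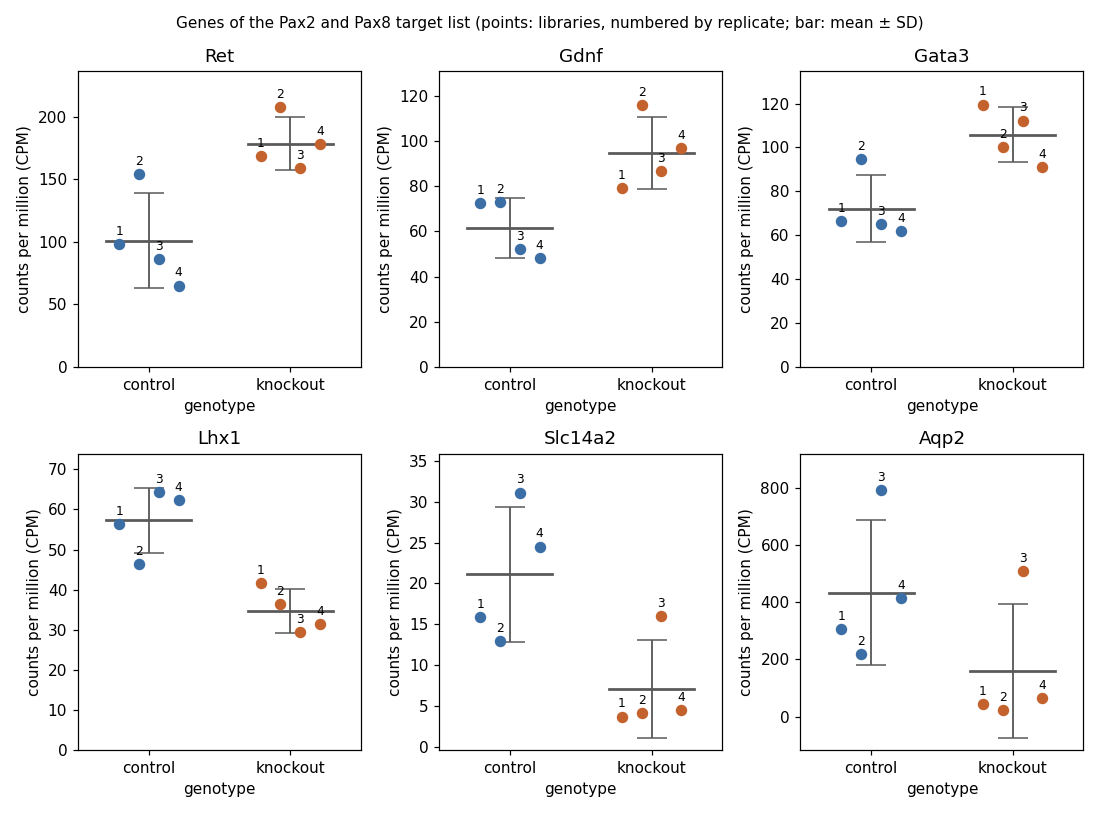
CPM (y axis) of 6 genes known to depend on Pax2 or Pax8, with libraries numbered by replicate and bars for the mean with SD. Ret and Gdnf are higher and Lhx1 lower in all 4 knockouts than in all 4 controls, and knockout replicate 3 stands apart at 16.1 CPM of Slc14a2 and 508 CPM of Aqp2.

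Genes known to depend on Pax3 were mostly too low to test. Of 9, 4 were tested, 1 was called higher (Ret, named above) and 2 lower, beside 6.61% and 8.27% of all genes. Whether a gene is raised or lowered by its Pax factor was not taken into account, here or for Pax2 and Pax8. Lbx1, a homeobox gene of migrating muscle precursors, was under the filter, with 0, 3, 3 and 0 counts in control replicates 1 to 4 and 5, 7, 7 and 22 counts in knockout replicates 1 to 4. The groups of Lbx1 did not overlap, and it was called higher by DESeq2 (adjusted p 0.0446) and not by edgeR without a filter (adjusted p 0.0985). Mitf, the master factor of melanocytes, which is also expressed in other cells, was at 12.9, 15.3, 18.8 and 17.1 CPM in control replicates 1 to 4. It was at 11.95, 8.33, 11.5 and 9.57 CPM in knockout replicates 1 to 4, below all controls, a difference of −0.63 on the log2 scale (with SE 0.16, adjusted p 0.0332). Msx2, a homeobox gene, went from 1.94 ± 0.582 to 0.782 ± 0.270 CPM (SD, n = 4 each), and changed by −1.29 (SE 0.33, adjusted p 0.0338). Met, the receptor for hepatocyte growth factor, was not called at −0.21 (adjusted p 0.0763). From 0 to 4 of the list were called when 1 library was left out, the 4 without control replicate 2, and Mitf and Msx2 each kept their call in 2 of these 8 fits.

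The genes whose levels followed each member most closely over the 8 libraries were taken by Pearson's r of log2 CPM among 14187 genes, as a description. All points share the library and its depth. For Pax3 they were Grin2b (r = 0.993), a subunit of the NMDA receptor, Mbd6 (0.992), Tmx4 (0.992), Fat4 (0.989), a giant atypical cadherin, and Cdh22 (0.988). In Fat4 the values were 102, 172, 81.8 and 82.4 CPM in control replicates 1 to 4 and 224, 265, 230 and 249 CPM in knockout replicates 1 to 4. Like Pax3, Fat4 had control replicate 2 between the other controls and the knockouts, and it changed by 1.14 (adjusted p 0.0191). Cdh22, another cadherin, had 12.4 CPM in control replicate 2, 4.32 to 5.78 CPM in the other controls and 16.9 to 24.6 CPM in the knockouts. Both genes were chosen because their levels followed Pax3 in these same libraries. Their likeness to Pax3 follows from that choice and adds no separate evidence on control replicate 2 or on the genotypes. For Pax8 the closest genes were Mtmr3 (r = 0.973), Brd2 (0.918), Samhd1 (0.905), Inpp4b (0.888) and Desi1 (0.887), and 0 of these 5 were called. For Pax2 they were Nppc (0.935), Nfe2 (0.927), Pip4k2b (0.909), Stx11 (0.909) and Lrp8 (0.894), and 0 of these 5 were called. The log2 fold changes of the genes closest to Pax8 and to Pax2 lay between 0.0045 and 0.54. Of all genes tested, 14.9% were called. The absence of calls follows in part from the choice, since Pax2 and Pax8 were not called themselves.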

How the data were processed

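RNA from 8 mouse kidney libraries was measured. Per the submitters' processing notes, Trimmomatic 0.36, STAR 2.5.2b, featureCounts, Subread 1.5.2, DESeq2 and the build GRCm38 were used, with no role given. Strand and multi-mapping settings are not given in the sources used here. The deposited values are whole-number counts per gene without normalization, per the file headers, and the series table and the library tables differed in 0 cells. Of 48970 IDs with a symbol, 91.4% had the coordinates of GENCODE M21. Libraries were scaled by TMM, filtered with filterByExpr and compared by quasi-likelihood tests in edgeR 4.0.16 (R 4.3.3), with Benjamini-Hochberg adjustment over all 18485 genes tested. SE and 95% intervals come from the fold change and F statistic. Ratios of counts per kb were compared by exact two-sided permutation tests (scipy 1.17.1). The fit was tested on simulated data, where larger changes were recovered and smaller ones only in part. The criterion for passing was narrowed to the larger changes after the first run. Alternatives were DESeq2 1.42.0, limma 3.58.1 (voom), DESeq2 size factors, other filters, covariates, a replicate block and left-out libraries. No pair of libraries was alike within sampling noise, the lowest chi-square per degree of freedom of 28 pairs being 11.04.

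The members and 21 gene lists (183 genes, all matched) were chosen with earlier results of these data known. Genes are named by rule: the Pax family, Kdm1a, Epcam, up to 3 called genes per list and direction with the smallest adjusted p, and the 5 genes most like each member with a mean of at least 1 CPM, without predicted genes, pseudogenes, Xist and Y-linked genes. Uncalled genes of the lists, Gm20395, neighbouring genes and Sox10, S100b, Pmel, Myod1 and Myf5 were named after their values were seen. RefSeq promoters were not used. Some listed genes enter the counts and are not reported here by name.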

Additional observations from a re-analysis of the deposited data

Results flagged for a closer look

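In 12 of 74 groups of 4 libraries examined, 1 library lay far from the other 3, with a gap above Dixon's critical value for the group's range. Chance alone gives this in about 1 of 20 groups. The 12 cannot be set against that share, since the groups come from the same libraries, the ratios reuse Pax2, and some genes were chosen for following a member or after their values were seen.

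Control replicate 1 had 127 CPM of Pax2, against 101 to 104 in the other controls, a log2 ratio of Pax2 to Pax8 of 0.29, against −0.19 to −0.12, and one of Pax2 to Epcam of −2.74, against −3.21 to −3.14. It also had 47.7 CPM of Pip4k2b, a lipid kinase gene chosen because its level followed Pax2, against 41.5 to 41.7, which adds no separate evidence on that library.

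Control replicate 2 had 0.927 CPM of Pax3, against 0 to 0.123 in the other controls. It had 3.89 CPM of Gm20395, the antisense gene within Pax2, against 0.533 to 1.01, and 94.7 CPM of Gata3, against 61.9 to 66.5.

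Knockout replicate 3 had 471 CPM of Cdh16, against 212 to 252 in the other knockouts, 16.1 CPM of Slc14a2, against 3.72 to 4.53, and 508 CPM of Aqp2, against 22.3 to 64.7.

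Knockout replicate 4 had 2.27 CPM of Nppc, the gene of C-type natriuretic peptide, against 3.21 to 3.34 in the other knockouts, and 43.7 CPM of Pip4k2b, against 48.5 to 48.8.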

How the results depend on the processing

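Pax2 had a positive log2 fold change and no call in all 18 alternatives (0.06 to 0.20). Pax8 had no call in any, at −0.028 with limma-voom, −0.0016 without control replicate 2 and knockout replicate 3, and 0.01 to 0.10 when 1 library was left out. Pax3 was positive in all 18, at p under 0.05 in 9. Among the 9 is the exact permutation test, added after seeing the data, with an unadjusted p fixed by the absence of overlap. Pax3 was not called with the Y-linked covariate (2.89) or the adrenal covariate (3.09). When 1 library was left out it ran from 2.40 to 4.97, and Kdm1a from −0.29 to −0.24. The difference between genotypes in the log2 ratio of Pax8 to Epcam ran from −0.036 to 0.062 when 1 library was left out and was −0.018 without the pair named above. The differences in the ratios of Pax2 to Pax8 and to Epcam were positive in these fits, with no call.

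The 2751 genes called became 4441 with DESeq2, 8302 with limma-voom, 1258 with the adrenal covariate, 7903 without that pair, and 153 to 7084 when 1 library was left out. Called cofactors (2) became 6, 12, 0 and 9 in the same order, 0 with no filter and 1 with the Y-linked covariate, and 0 to 10 when 1 library was left out. Called partners (0) became 1 with DESeq2, 7 with limma-voom, 1 with no filter, 5 without that pair, and 0 to 3 when 1 library was left out. Called targets of Pax2 and Pax8 (4) became 7, 11, 2 and 11 with DESeq2, limma-voom, the adrenal covariate and without that pair, and 0 to 10 when 1 library was left out. Called targets of Pax3 (3) became 0 with the adrenal covariate and 0 to 4 when 1 library was left out. Fewer libraries entered the latter fits. Otherwise the cause was not tested.

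Replicate numbers are shared between groups, but libraries of the same number did not deviate together (r from −0.11 to 0.33, and 3 of 8 libraries correlated best with their own number). With the replicate block 3 partners and 9 targets of Pax2 and Pax8 were called, the targets including Aqp2 (−2.36, adjusted p 0.0143), Slc14a2 (−1.76, adjusted p 0.00775) and Cdh16 (−0.75, adjusted p 0.0435). Pax2, Pax8 and Pax3 were at 0.11, 0.03 and 3.31, with Pax3 called. Depth limits Pax3, where a library held 0 to 65 counts.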
